A study of Homo sapiens with 8 samples.

Results

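The regions described here are TIA1 peaks that lie close to other TIA1 peaks and far from any RBFOX2 peak. They were chosen by position alone. A member is a peak of the TIA1 list with no RBFOX2 peak overlapping it or within 1000 bases on the same strand, and with at least 1 other TIA1 peak within 1000 bases on that strand. By this rule 980 of the 3215 TIA1 peaks were members, or 30.5% of the list, and the 2 lists of the series hold 3215 TIA1 and 4227 RBFOX2 peaks. The other TIA1 peaks were 1103 solitary peaks equally far from RBFOX2, 359 peaks beside an RBFOX2 peak (within 1000 bases without overlap) and 773 peaks that overlap one.

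The peaks come from eCLIP, in which RNA is crosslinked to its bound proteins with ultraviolet light, one protein is pulled down and the RNA that comes with it is sequenced. For TIA1 and for RBFOX2 there were 2 pulled-down libraries (clip) and 2 input libraries without pull-down, 8 in all. All were from HEK293T, an immortalised human embryonic kidney line (the growth protocol writes HEK293), crosslinked with 600 mJ of ultraviolet light, with no other treatment or genotype named. The labels give an antibody to the HA tag for the clip libraries and none for the input, while one protocol text names beads bound to TIA1 for every library. Each deposited list joins both replicates, and the labels do not settle whether those are biological or technical. It holds no value per library, so no spread between replicates can be given and no comparison below has a test.

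TIA1 binds U-rich RNA through its RNA recognition motifs. In the nucleus it can promote the use of weak 5′ splice sites that are followed by U-rich intron sequence, and in the cytoplasm it binds 3′ untranslated regions, restrains translation and helps to build stress granules. RBFOX2 binds the element GCAUG and regulates alternative splicing. U-rich tracts are often long or repeated, and RNA-binding proteins can occupy several adjacent positions in a transcript.

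Each deposited peak has a log2 fold, read as clip over input, and a −log10 p, which grows as the p-value falls. Both are the authors' own values. No TIA1 peak has a log2 fold under 3, which is 8-fold, and the −log10 p stops at 400. Positions are 1-based in hg19. Genes, exons and sequences are not given, since the annotation at hand is of another build, and regions are named by position. The 95% intervals below are binomial and cover counting error only. They treat peaks as independent, which peaks of one transcript are not.

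The members fell into 359 clusters, a cluster being a run of at least 2 member peaks in which neighbours on the strand lie within 1000 bases. These clusters held 976 members. The remaining 4 members had as their only neighbours TIA1 peaks that lie within 1000 bases of RBFOX2. Clusters were mostly small: 240 were pairs (66.9%), 63 had 3 peaks and 32 had 4. Another 20 held 5 to 10 peaks and 4 held more than 10. Pairs took in 480 members, 49.0% of all, and the 24 clusters of 5 or more took in 179 members, or 18.3%. Strands were used about evenly, with 189 clusters on plus strands and 170 on minus strands.

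**Figure D1:**
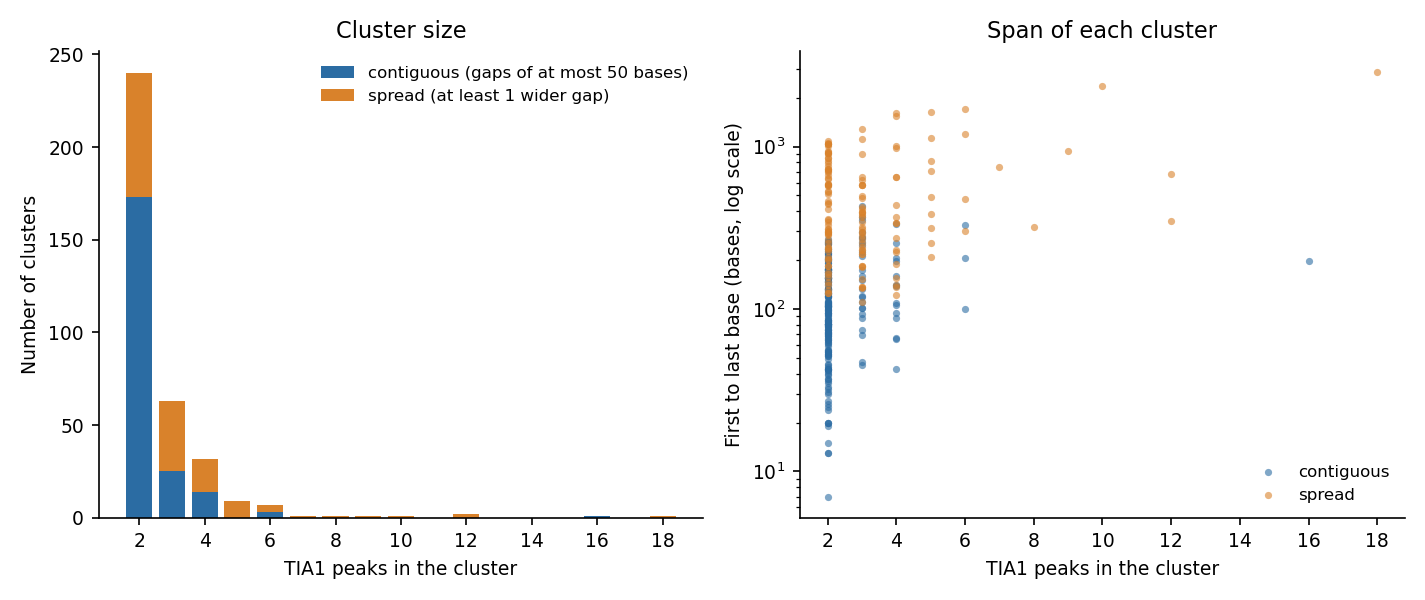
The left panel counts the 359 clusters by the number of TIA1 peaks they hold, and the right panel plots each cluster's span in bases (log scale) against that number. Pairs make up 240 clusters, and the cluster of 16 peaks spans only 197 bases while that of 18 peaks spans 2876.

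Closeness took distinct forms. Of the 617 pairs of neighbouring peaks within clusters, 377 abutted with no base between them (61.1%) and 63 had a gap of 1 to 50 bases. Gaps over 50 and up to 200 bases were found in 79 pairs, gaps over 200 and up to 500 in 53 and longer gaps, up to 1000, in 45. With gaps of up to 50 bases bridged, 216 clusters (60.2%) became a single joined site and are called contiguous here. The other 143 clusters, called spread, held 320 joined sites.

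**Figure D2:**
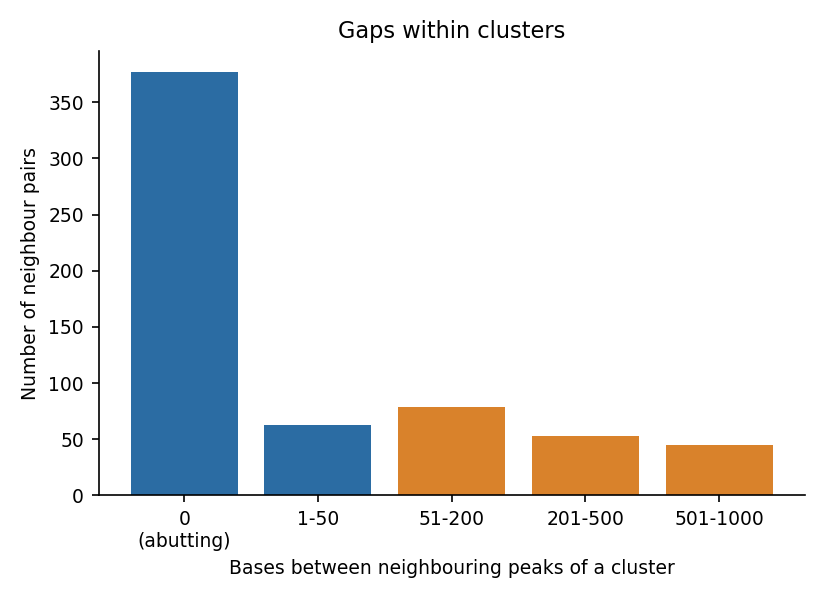
Bars count the 617 neighbouring pairs of member peaks by the number of bases between them, in blue up to 50 bases and in orange above. Abutting pairs, 377 in number, outnumber all the other distance classes together.

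Contiguous clusters were compact. Their median span was 103.5 bases (95% interval 93.0 to 111), with a range from 7 to 433 bases, and 173 of the 216 were pairs. Spread clusters had a median span of 383 bases (interquartile range 238 to 705) and peaks covered a median of 22.7% of it. In 122 of them the peaks formed 2 joined sites, in 15 they formed 3, and in 6 they formed 4 or more. The 177 gaps between successive sites had a median of 248 bases (interquartile range 102 to 503). In 72 spread clusters every site was a lone peak, so that no member there had another member within 50 bases. An abutting pair may be a single site cut into parts or adjacent sites, and the list does not let these be told apart.

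Pooled over peaks, median folds differed little between both kinds of cluster. The 511 peaks of contiguous clusters had a median log2 fold of 3.37 (95% interval 3.33 to 3.41), and the 465 peaks of spread clusters had 3.33 (3.28 to 3.36), so the intervals overlapped. With each cluster counted once by its median, the values lay further apart. They were 3.40 (interquartile range 3.21 to 3.60) in contiguous and 3.31 (3.18 to 3.49) in spread clusters. Median −log10 p was 9.12 (8.43 to 9.68) in contiguous and 7.51 (6.98 to 8.41) in spread clusters. Peaks were narrower in the spread clusters, with a median of 26 bases (23 to 30) against 41 (35 to 46). A log2 fold of at least 4, which is 16-fold, was reached by at least 1 peak in some clusters. These were 35 of 216 contiguous clusters (16.2%) and 18 of 143 spread clusters (12.6%). Counted by peak, this fold was reached by 52 of 511 in contiguous clusters (10.2%) and 27 of 465 in spread clusters (5.81%). Over all TIA1 peaks the share was 9.21%.

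The members were then set beside the other TIA1 peaks. The rule used the positions of peaks from the same clip and input libraries, so these values describe the members and support nothing further. Members had a median log2 fold of 3.34 (95% interval 3.32 to 3.37), solitary peaks 3.29 (3.26 to 3.31), peaks beside RBFOX2 3.42 (3.37 to 3.46) and peaks overlapping RBFOX2 3.47 (3.42 to 3.51). Members thus stood 0.056 above solitary peaks and 0.13 below overlapping peaks on the log2 scale. By the ends of both medians' intervals, members minus solitary peaks ran from 0.0060 to 0.10. Members minus overlapping peaks ran from -0.19 to -0.054. The first of these differences turned to -0.013 when TIA1 peaks within 50 bases were joined before the rule was applied. Each joined peak took the highest log2 fold of its parts, and the solitary class grew from 1103 to 1318 peaks. That value therefore compares classes of another composition. The second difference turned to 0.055 when both lists were limited to a log2 fold of at least 4. That setting left 84 members and only 27 overlapping peaks. By the ends of both medians' intervals, the difference there ran from -0.21 to 0.33, so its sign is not settled. A log2 fold of at least 4 was found in 79 members, 8.06% (95% Clopper-Pearson interval 6.43 to 9.95%), against 9.21% of all TIA1 peaks.

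Members were narrower than solitary peaks and had a higher −log10 p. The median member was 33 bases wide (95% interval 30 to 36) and the median solitary peak 74 bases (72 to 77). Peaks beside RBFOX2 had a median width of 55 bases and overlapping peaks of 79. Widths under 20 bases were found in 320 members (32.7%) and in 142 solitary peaks (12.9%). The 980 members covered 41.5 kb in all, and the 1103 solitary peaks 85.2 kb. Joined into sites, contiguous clusters were wider than solitary peaks, at the median of 103.5 bases given above. Joining peaks widens a site by construction. The 320 joined sites of spread clusters had a median width of 44 bases and so stayed narrower than solitary peaks. Median −log10 p was 8.42 (7.79 to 8.73) for members, 5.37 (5.12 to 5.61) for solitary peaks, 8.95 (8.09 to 9.77) beside RBFOX2 and 9.46 (8.90 to 10.1) for overlapping peaks.

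**Figure D3:**
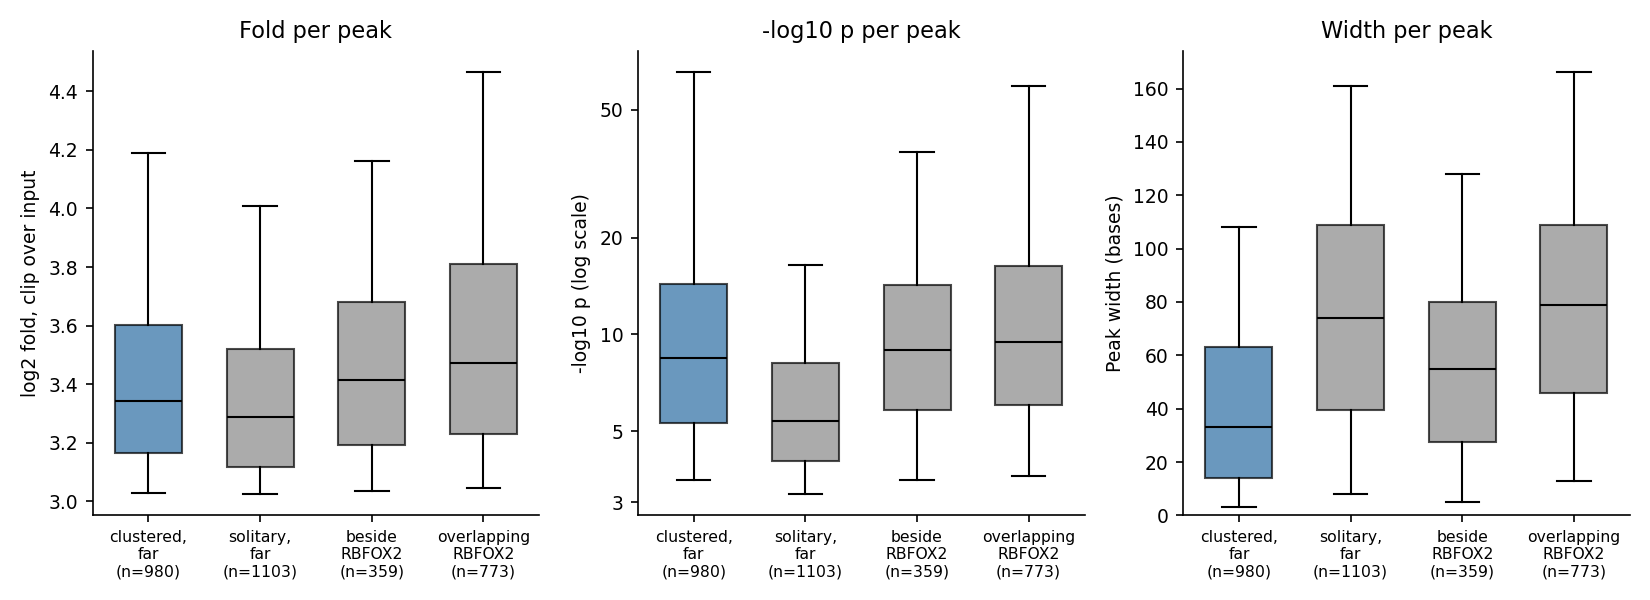
Boxes show the quartiles and median of log2 fold, −log10 p (log scale) and width in bases for the 4 classes of TIA1 peaks, with whiskers from the 5th to the 95th percentile and peaks as the unit. Members (blue) have a median width of 33 bases against 74 for solitary peaks, while the median log2 folds are 3.34 and 3.29.

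Within clusters, neighbouring peaks had related but not equal folds. The standard deviation of log2 fold was 0.38 over all members, 0.33 over the medians of clusters and 0.30 among the peaks of a cluster, pooled. The highest and lowest peaks of a cluster differed by a median of 0.26 (interquartile range 0.13 to 0.55). The difference stayed under 0.25 in 170 clusters (47.4%), and it exceeded 1 in 19. Over the 377 abutting pairs, Spearman's rho between the 2 folds was 0.48. Over the 177 pairs more than 50 bases apart it was 0.29. Pairs of a cluster share their libraries and lie close together on a strand, and whether they share a transcript was not examined. These coefficients are descriptions.

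**Figure D4:**
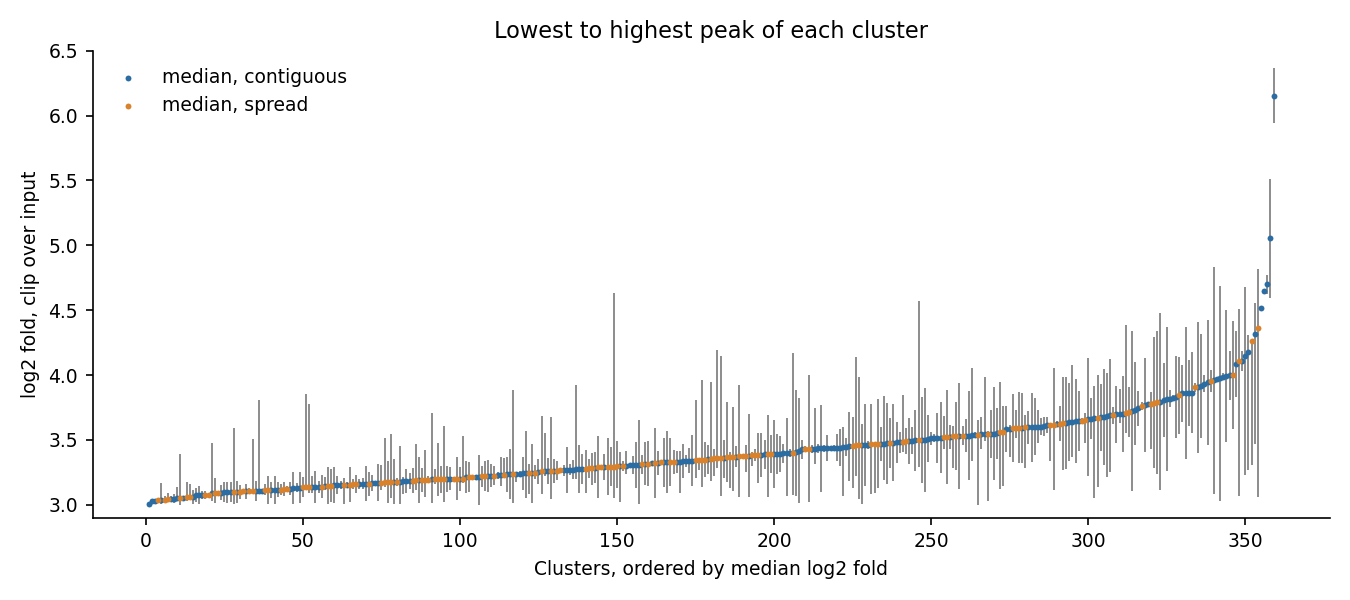
Each vertical line runs from the lowest to the highest log2 fold of the peaks in 1 of the 359 clusters, ordered by the cluster's median log2 fold (dots, blue for contiguous and orange for spread). The median difference between highest and lowest peak is 0.26, and the cluster at the right end reaches 6.37.

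Fold along contiguous clusters often peaked inside the run. Among the 43 contiguous clusters with at least 3 peaks, the peak with the highest fold was an inner one in 27 (62.8%), while inner peaks made up a mean of 42.3% of the peaks of these clusters. A run ends where no further member follows, and no listed peak has a log2 fold under 3. Whether this limit bears on the outer folds was not tested. Inner peaks had a median log2 fold of 3.55 and a median width of 25 bases. Outer peaks had a median log2 fold of 3.24 and a median width of 41 bases. These medians pool peaks, and a larger cluster adds more inner peaks but no more outer ones. The 79 inner peaks thus draw most on the chromosome 1 cluster of 16 peaks. Its median log2 fold was 3.98 and its median width 7 bases. Read along the RNA, the 5′ peak of an abutting pair had the higher fold in 219 of 377 pairs and the 3′ peak in 153, or 40.6% (95% Clopper-Pearson interval 35.6 to 45.7%). The 3′ share was 37.7% on plus strands and 44.1% on minus strands (36.5 to 51.9%). In the 146 clusters that were just 1 abutting pair, where each cluster counts once, the 3′ peak was higher in 54 (37.0%, 29.2 to 45.4%). In the 231 abutting pairs of larger clusters it was higher in 99 (42.9%, 36.4 to 49.5%). The median difference, 3′ minus 5′, was -0.091 on the log2 scale in the former and -0.012 in the latter.

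The cluster with most peaks lay on the minus strand of chromosome 8, from 145623225 to 145626100. Its 18 peaks formed 8 joined sites over 2876 bases and covered 12.1% of them. Log2 folds ran from 3.02 to 4.002. The upper part of that range came from neighbouring sites of 4 peaks (145625188 to 145625258) and 7 peaks (145625382 to 145625475), the latter with folds from 3.51 to 3.90. A lone peak at 145625560 to 145625581 had 3.55, and the other 5 sites stayed between 3.02 and 3.18. The nearest RBFOX2 peak on the strand was 8358 bases away.

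The second cluster packed 16 peaks into 197 bases of the plus strand of chromosome 1, from 109642956 to 109643152. Its peaks were 2 to 25 bases wide, with a median of 7, and 15 of them stood at the −log10 p limit of 400. Log2 fold was 3.20 at the 5′ end, 3.98 at 109642992 to 109642997 and 3.03 at 109642998 to 109643009. It then climbed to its highest value of 4.69, or 25.8-fold, at 109643078 to 109643093, and returned to 3.05 at the 3′ end. Peaks over a log2 fold of 4 numbered 7. Fold thus had a lower crest near the 5′ end and a higher one further 3′.

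On the plus strand of chromosome 20, 12 peaks ran from 57466450 to 57466799 and covered 79.4% of 350 bases. The first 10 peaks formed a site of 182 bases in which log2 fold was highest near the 5′ end, at 4.51 (57466516 to 57466524), and lowest in the last peak, at 3.40. After a gap of 72 bases the last pair of peaks had 3.06 and 3.18. The −log10 p reached 400 in 3 peaks and was 29.9 at its lowest.

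Another 12 peaks lay on the plus strand of chromosome 21, from 47406859 to 47407536, in 4 sites over 678 bases. Here every fold was moderate, between 3.09 and 3.77, and −log10 p between 4.43 and 12.1. The nearest RBFOX2 peak was 4444 bases away. On the plus strand of chromosome 9, 10 peaks formed 7 sites from 117050735 to 117053099. The first 5 sites were 49 or 52 bases wide. Log2 fold was highest in the second site, at 3.98 (117050983 to 117051034), and lowest at 3.05. No peak there exceeded a −log10 p of 4.98, so this cluster was large in peaks and extent without a high −log10 p in any of them.

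**Figure D5:**
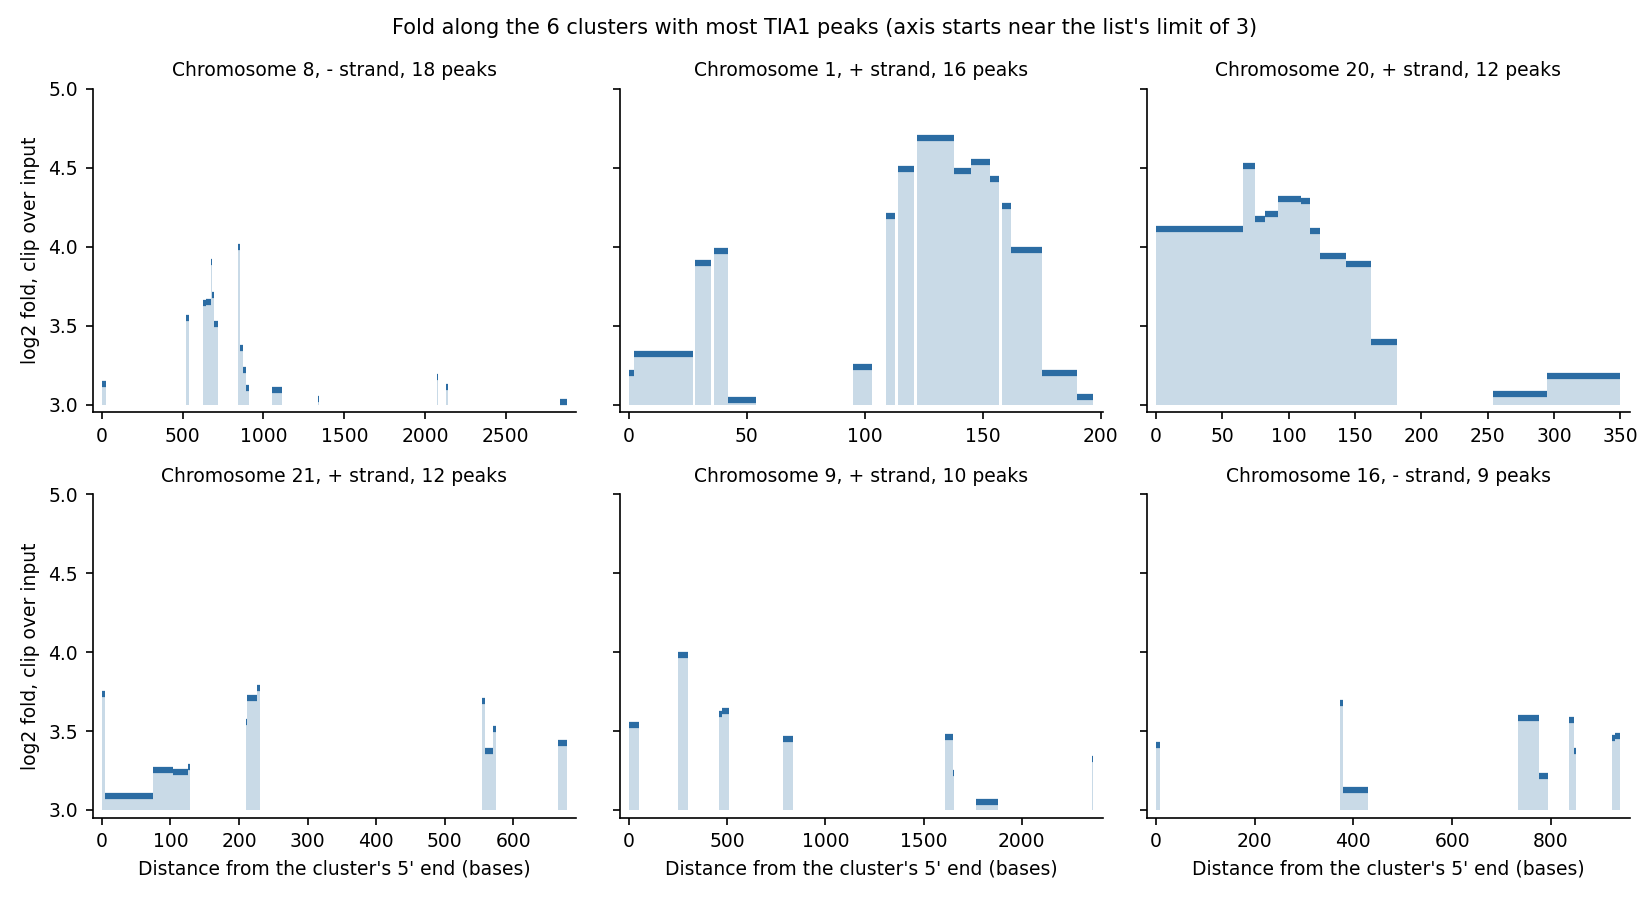
Log2 fold (vertical axis, from just under the list's limit of 3) is plotted against distance in bases from the 5′ end for the 6 clusters with most peaks, each horizontal bar being 1 peak. The chromosome 1 cluster rises to 4.69 within 197 bases, while those on chromosomes 8, 9, 16 and 21 consist of separate short sites.

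The other named clusters of many peaks held 6 to 9. At 6 peaks 7 clusters tied, and the 2 of them with the longest covered length are given. On the minus strand of chromosome 16, 9 peaks from 88793033 to 88793973 formed 4 sites whose log2 folds lay between 3.13 and 3.68. Chromosome 11 held 8 plus-strand peaks from 809970 to 810289, in 2 sites 192 bases apart. The first had nearly equal folds, from 3.64 to 3.66. The second ran from 3.001 to 3.55, and 7 of the 8 peaks stood at the −log10 p limit. Further along chromosome 11, 7 peaks from 34073277 to 34074020 had folds from 3.14 to 3.51 in 2 sites of 142 and 138 bases. The 6 peaks on the plus strand of chromosome 12, from 6875531 to 6875860, had the highest median log2 fold of the 10 clusters named for their number of peaks, 4.31, and reached 4.56. A run of 6 abutting peaks on the minus strand of chromosome 19, from 15443101 to 15443305, stayed between 3.002 and 3.39.

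A −log10 p at the limit of 400 was found in 37 members, 3.78% (95% Clopper-Pearson interval 2.67 to 5.17%), against 2.02% of all TIA1 peaks. The latter share includes the members. Of the peaks overlapping RBFOX2, 23 of 773 were at the limit (2.98%, 1.90 to 4.43%). So were 3 of 359 peaks beside RBFOX2 (0.84%) and 2 of 1103 solitary peaks (0.18%). The 37 members belonged to only 9 clusters, 2.51% of the 359 (1.15 to 4.71%). The chromosome 1 cluster alone held 15 of them, and without it 22 of 964 members (2.28%) were at the limit. Log2 folds of the 37 ran from 3.03 to 4.69 with a median of 3.66, and 35 of them lay on plus strands. Of all 980 members, 524 lay on plus strands. Peaks of a cluster share its strand, and the 35 include the 15 of the chromosome 1 cluster. They are thus not independent counts of strand. As these 9 clusters tie, those with the higher folds are named first. Next to the clusters already described, 3 abutting peaks on the plus strand of chromosome 15, from 69745228 to 69745359, were all at the limit, with log2 folds of 3.46, 4.10 and 3.73 from 5′ to 3′. On the minus strand of chromosome 1, from 67895927 to 67896085, 1 of 4 peaks reached the limit and the highest fold was 4.02. A pair on the plus strand of chromosome 16, from 2818097 to 2818177, had 3.73 and 3.26, both at the limit. The last 3 of the 9 clusters fall outside the rule for naming and were added after their values were seen. All 4 abutting peaks on the plus strand of chromosome 1, from 26798987 to 26799095, were at the limit, with log2 folds from 3.07 to 3.60. On the minus strand of chromosome 14, from 103989103 to 103989168, 1 of 4 peaks was at the limit. The same held for 1 of 2 peaks on the plus strand of chromosome 22, from 20105033 to 20105187.

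The highest folds were found in pairs and a triplet with far lower −log10 p. The abutting pair on the plus strand of chromosome 12, from 124082155 to 124082197, had log2 folds of 6.37 and 5.94 at a −log10 p of 14.1 and 13.8. A pair on the minus strand of chromosome 20, from 524315 to 524435, had 5.51 in the 5′ peak and 4.59 in the 3′ peak. On the plus strand of chromosome 12, from 13199070 to 13199159, the folds were 4.62 and 4.77. In the pair on the plus strand of chromosome 19, from 1407589 to 1407662, they were as unlike as 3.09 and 4.83, 11 bases apart. The triplet on the minus strand of chromosome 22, from 50716025 to 50716920, had 4.82, 4.36 and 3.06 from 5′ to 3′, over 896 bases. Across the 980 members, Spearman's rho between log2 fold and −log10 p was 0.10, and between log2 fold and width it was -0.018. Both are descriptions of a list cut at fixed limits.

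Beside those on chromosomes 8 and 9, the longest by span were on chromosome 22 and chromosome 19. On the minus strand of chromosome 22, 6 peaks from 50898710 to 50900417 covered 8.90% of 1708 bases, with folds from 3.14 to 3.96. On the minus strand of chromosome 19, 5 peaks from 5210798 to 5212435 covered 6.47% of 1638 bases. On the plus strand of chromosome 22, 4 peaks from 31998712 to 32000321 had log2 folds that were highest in the peak at the 3′ end, at 4.14. Over the 359 clusters, Spearman's rho between the number of peaks and the median log2 fold was 0.0093.

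Some clusters lay near one another. With clusters on a strand joined where they were at most 50 kb apart, 313 neighbourhoods resulted, and 38 of them held at least 2 clusters, 84 in all (23.4%). The one with most members was on the minus strand of chromosome 16, from 88786627 to 88801107. There 4 clusters with 22 members lay within 14.5 kb, with 1 solitary TIA1 peak and no RBFOX2 peak between them (0 in the interval). Their log2 folds ran from 3.01 to 4.05. On the plus strand of chromosome 21, from 47406859 to 47419590, 3 clusters with 16 members were interspersed with 7 TIA1 peaks near RBFOX2 and 2 RBFOX2 peaks. On the minus strand of chromosome 1, from 19439018 to 19479976, 4 clusters with 11 members shared 41.0 kb with 11 TIA1 peaks near RBFOX2 and 8 RBFOX2 peaks, and no member there exceeded 3.41.

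Far from RBFOX2 meant far in most cases. The nearest RBFOX2 peak on the strand was a median of 149.5 kb from a member (interquartile range 20.0 to 629.5 kb), and 284.3 kb from a solitary peak. It lay within 10 kb of 150 members (15.3%) and of 95 solitary peaks (8.61%). Members of a cluster have nearly the same distance. With each cluster counted once, the median was 186.5 kb, and 49 of the 359 clusters (13.6%) lay within 10 kb. At the limits of the rule, the closest member (chromosome 3, 48603980 to 48603996, minus strand) was 1012 bases from RBFOX2 with a log2 fold of 3.26. A peak just outside (chromosome 12, 123465265 to 123465294, plus strand) was 991 bases away with 3.01. The member with the most distant neighbour (chromosome 16, 2136835 to 2136872, plus strand) had it at 995 bases and a log2 fold of 3.10. The solitary peaks just outside, 1024 bases apart on the plus strand of chromosome 14 (64407332 to 64407391 and 64408416 to 64408438), had 3.49 and 3.04.

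The same rule with the lists exchanged gave 1596 clustered RBFOX2 peaks far from TIA1, in 488 clusters. TIA1 clusters were smaller, with a mean of 2.72 peaks against 3.26 and a median span of 164 bases against 282. Clusters of 5 or more peaks were 6.69% of the TIA1 clusters and 17.0% of the RBFOX2 clusters. Contiguous clusters made up 60.2% (95% Clopper-Pearson interval 54.9 to 65.3%) of the TIA1 and 50.0% (45.5 to 54.5%) of the RBFOX2 clusters. The lists differ in length and come from separate pull-downs of unknown depth, and whether these move the cluster sizes was not tested. Median width was 62 bases among the RBFOX2 members against 33 among the TIA1 members.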

How the data were processed

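TIA1 and RBFOX2 eCLIP peaks from 2 clip and 2 input libraries per protein were used as deposited, 1 list per protein joining both replicates. Per the submitters' processing notes, UMI-tools 1.0.0, cutadapt 1.14, STAR 2.4.0i, SAMtools 1.6 and hg19 were used, without roles. No source used here names the peak caller. The deposited lists have no header. A column ranging from 3.01 to 400 was taken as the authors' −log10 p, and a column never under 3.00 as the authors' log2 fold of clip over input. Read counts are not in the lists, so the depth is unknown.

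Distances are bases between peaks on the same strand, with 0 for abutting peaks. Member peaks were chained into clusters at 1000 bases and into joined sites at 50 bases. Medians have order-statistic and shares Clopper-Pearson intervals at 95%. The named clusters are the 10 with most peaks, and the 5 each with the highest −log10 p, the highest log2 fold and the longest span. Ties in peak number went to the longer covered length, and ties in −log10 p to the higher log2 fold. The members and these choices were made with earlier results of these data known. Location, gene lists and motifs needed hg19 and were not analysed here. The rule and run finding were tested on simulated data. Computations used scipy 1.17.1, numpy 2.4.6 and pandas 2.3.3 in Python 3.11.15, with matplotlib 3.10.9 for figures.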

Additional observations from a re-analysis of the deposited data

How the results depend on the processing

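Of 96 values recomputed for 10 results under 10 alternatives, 69 stayed within their interval (counts within 1.5 times), 25 moved and 2 changed sign. Joining TIA1 peaks within 50 bases left 324 members in 143 clusters. Their share with a log2 fold of at least 4 was 5.86%, median −log10 p 7.16 and median width 44 bases. Members minus solitary peaks was then -0.013 in log2 fold, 1.29 in −log10 p and -33.5 bases in width, and members minus overlapping peaks was -0.20 in log2 fold. Joining removes abutting peaks by construction.

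A log2 fold of at least 4 in both lists left 84 members in 32 clusters, with medians of 4.42 for log2 fold, 18.3 for −log10 p and 29.5 bases for width. The differences from solitary peaks were 0.21, 9.97 and -35.5 bases, and that from overlapping peaks turned to 0.055. Only 27 overlapping peaks remained in this setting, and by the ends of both medians' intervals that difference ran from -0.21 to 0.33. The share over 4 has no meaning there and was not computed. A −log10 p of at least 5 gave a share of 10.2%, a median −log10 p of 10.1 and a width difference of -50 bases. Without peaks under 20 bases, 584 members remained, with a median width of 51 bases and a difference of -26 bases. Counting each run of members once, an alternative added after seeing the data, gave a median −log10 p of 7.62, a width of 39 bases and a width difference of -35 bases. A lower limit on fold, −log10 p or width cuts off low values of that measure by construction. Counting runs once leaves out no peak but gives clusters equal weight. What moved these values was not tested. Distances of 500, 2000 and 10000 bases, leaving out chromosomes M, X and Y, and leaving out the largest cluster moved no value beyond its interval. At 2000 and 10000 bases the log2 fold difference from solitary peaks ran from -0.012 to 0.093 and from -0.015 to 0.096. These ranges use the ends of both medians' intervals. The lower end was also negative with TIA1 peaks joined, without peaks under 20 bases and at a −log10 p of at least 5. In the other settings it stayed positive. No paired analysis was possible because the deposited values are 1 per peak for the replicates together, and leaving out a replicate was not possible for the same reason. Unknown depth means that an RBFOX2 peak missing from the list cannot be read as absence of RBFOX2.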

Other observations

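Members were found on chromosomes 1 to 22 and X. Chromosome 1 held 111 members (11.3%) in 37 clusters, and chromosome 19 held 106 (10.8%, 95% Clopper-Pearson interval 8.94 to 12.9%) in 40 clusters, the largest number of clusters on any chromosome. Among solitary peaks chromosome 19 had 94 (8.52%, 6.94 to 10.3%). Chromosome 16 followed with 82 members (8.37%, 6.71 to 10.3%) against 62 solitary peaks (5.62%, 4.34 to 7.15%). Some chromosomes had fewer members than solitary peaks: chromosome 4 had 11 (1.12%, 0.56 to 2.00%) against 37 (3.35%, 2.37 to 4.59%), and chromosome 14 had 19 (1.94%, 1.17 to 3.01%) against 46 (4.17%, 3.07 to 5.52%). Chromosome 18 held 4 members and chromosomes M and Y held none (0 each). Counted by clusters, shares were 11.1% (8.08 to 14.9%) on chromosome 19 and 6.96% (4.56 to 10.1%) on chromosome 16. They were 1.11% (0.30 to 2.83%) on chromosome 4 and 1.95% (0.79 to 3.98%) on chromosome 14. On each of these, the cluster interval overlapped that of solitary peaks. Of all TIA1 peaks, 8.65% lay on chromosome 19, 6.31% on 16, 2.77% on 4 and 3.08% on 14. These shares were not tested.

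The rule looked at the same strand alone. On the opposite strand, an RBFOX2 peak lay within 1 kb of 6 members and overlapped 1 of them. Of the 1103 solitary peaks, 4 had an RBFOX2 peak within 1 kb on the opposite strand. No TIA1 peak lay within 1 kb of a member on the opposite strand (0 of 980), while this was so for 4 of the 1103 solitary peaks.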
